A study of Mus musculus with 3 samples.

Results

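The 10 neuropeptide precursor genes of the cerebral cortex followed here were Sst, Cort, Npy, Vip, Adcyap1, Cck, Tac1, Penk, Pdyn and Crh. They were chosen by name as genes with a probe set annotated to that gene alone, and all 10 had exactly 1 such probe set, so that they are 10 of 14806 genes with a probe set of their own. Total RNA was taken from the neocortex of mice of the outbred CD1 stock at postnatal day 13, and the 3 animals were wild type. Each animal gave 1 array, and all 3 belong to a single group. The data therefore hold levels and the spread between animals, and no contrast between conditions. That spread includes technical error, which 1 array per animal cannot separate. The labels call the tissue neocortex and name no layer, area or sex.

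Neuropeptides are made as long precursors, cut by prohormone convertases in the secretory pathway, stored in dense-core vesicles and released on sustained firing to act on G protein-coupled receptors. In the cortex they are best known as markers of inhibitory interneuron classes, with somatostatin, vasoactive intestinal peptide and neuropeptide Y the usual examples. Cholecystokinin and PACAP are also made by excitatory neurons, and enkephalin, dynorphin and substance P are abundant in the striatum beneath the cortex. In tissue RNA of this kind, fewer cells of a type and less RNA per cell cannot be told apart.

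All levels below are log2 intensities, 1 value per mouse, with the SD over mice (n = 3). A probe set's brightness reflects its probes and not the RNA alone, and genes are therefore not ranked against each other by level. A background limit was set on each array at the 95th percentile of 951 probe sets of chemoreceptor genes (olfactory, vomeronasal and trace amine), which gave 6.86 for mouse 1, 6.71 for mouse 2 and 6.69 for mouse 3. All 10 precursors exceeded it in each of the mice, as did 74.6% of single-gene probe sets in general. Their distance above it ran from 1.48 log2 units for Cort in mouse 1 to 6.50 for Cck in mouse 2. The highest intensity among them, 9499 for Cck in mouse 2, lay below the array's maximum of 15974. Markers of cortical neurons were present in the same RNA: Slc17a7, the vesicular glutamate transporter of cortical excitatory neurons, was at 12.89 ± 0.10, and Gad1 and Gad2, the enzymes that make GABA, were at 11.68 ± 0.08 and 11.38 ± 0.04.

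In the deposited values all 10 precursors shared 1 order of the animals, mouse 1 the lowest and mouse 2 the highest, an order that 42.0% of all genes above the limit had. Under other scalings of the arrays it held for 5 to 10 of them, and for 21.5% to 42.0% of genes. The sequence before the start sites is also shown, as a description, and any part of it in the order of the animals was not tested. The cAMP response element, TGACGTCA, is a site of CREB-family factors that was worked out on the somatostatin gene, and CGTCA is the core of its many shorter forms. Promoter windows of 300 bases from RefSeq (build GRCm38.p6, 250 bases before to 50 after a start) were matched by gene ID for 8 of the 10 genes, all but Penk and Crh, and searched on both strands. The stretches shown lie before the start and are written along the gene's strand, with the capitals marking the full element, the form TGCGTCA or the core.
Sst, chr16:23890867-23890914, minus strand: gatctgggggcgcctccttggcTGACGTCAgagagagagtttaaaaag
Vip, chr10:5639117-5639164, plus strand: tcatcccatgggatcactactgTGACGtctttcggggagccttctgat
Adcyap1, chr17:93198904-93198951, plus strand: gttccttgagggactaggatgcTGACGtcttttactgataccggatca
Cck, chr9:121495718-121495765, minus strand: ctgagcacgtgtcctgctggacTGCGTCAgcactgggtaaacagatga
Tac1, chr6:7554840-7554887, plus strand: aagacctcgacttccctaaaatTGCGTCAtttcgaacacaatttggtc
Cort, chr4:149126764-149126811, minus strand: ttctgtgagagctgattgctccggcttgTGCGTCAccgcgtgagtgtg

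The full element was found in the window of Sst, with its first base 48 bases before the start, and in those of 2.03% of all 27025 genes with promoter windows. The form TGCGTCA began 49 bases before the start in Cck, 199 in Tac1 and 20 in Cort, and was present for 2.42% of all genes. The core CGTCA, or TGACG on the other strand, which lies inside both longer forms, was in the windows of 6 of the 8 genes (Sst, Vip, Adcyap1, Cck, Tac1 and Cort) and in those of 6228 of the 27025 genes, counting a gene once if any of its windows held it. In Vip and Adcyap1 it was TGACG, 79 and 91 bases before the start shown. The windows of Npy and Pdyn did not hold the core. A match describes these letters in these windows, and the arrays hold no measure of binding there.

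Sst encodes somatostatin, the inhibitory peptide of dendrite-targeting interneurons. Its probe set was at 12.29 in mouse 1, 12.80 in mouse 2 and 12.61 in mouse 3 (mean 12.57 ± 0.26). Mouse 1 was the low animal, 1.42-fold under mouse 2. Cort encodes cortistatin, a relative of somatostatin that binds the same receptors. Its probe set stood nearest to the background limit of the 10, at 8.34, 8.76 and 8.64 in mice 1 to 3 (8.58 ± 0.22). Mouse 2 was 1.34-fold above mouse 1 for Cort, and mice 2 and 3 differed by 0.12. Npy, the gene of neuropeptide Y, was at 11.18 in mouse 1, 11.94 in mouse 2 and 11.64 in mouse 3 (11.59 ± 0.39). This is a 1.70-fold distance between mice 2 and 1, and 1.65% of 11066 genes above the limit had as large a difference in that direction.

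Vip, which marks interneurons that inhibit other interneurons, had the widest spread of the 10 precursors. Its values were 8.90, 9.81 and 9.40 in mice 1, 2 and 3 (9.37 ± 0.45). Mouse 2 was 1.87-fold above mouse 1 and 1.33-fold above mouse 3, and 0.678% of genes above the limit had as large a difference between mice 2 and 1. Adcyap1 encodes PACAP, a peptide of the same family as vasoactive intestinal peptide. Its probe set was at 9.12 in mouse 1, 9.66 in mouse 2 and 9.34 in mouse 3 (9.37 ± 0.27). Mouse 2 was 1.45-fold above mouse 1, with mouse 3 nearer to mouse 1.

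Cck, the cholecystokinin gene, is used by a class of basket interneurons and by many excitatory cells. It was at 12.80, 13.21 and 13.12 in mice 1, 2 and 3 (13.04 ± 0.22). Mice 2 and 3 were separated by 0.09, and mouse 1 lay 0.41 below mouse 2, the narrowest such difference among the 10. Tac1, the precursor of substance P and neurokinin A, was at 11.27, 11.84 and 11.74 (11.62 ± 0.30). Again mouse 1 stood apart, with mouse 2 1.49-fold above it and mouse 3 1.38-fold.

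The opioid precursors did not place mouse 3 alike. Penk, the precursor of the enkephalins, was at 12.28 in mouse 1, 12.81 in mouse 2 and 12.73 in mouse 3 (12.61 ± 0.28), so that mice 2 and 3 were together and mouse 1 was low. Pdyn, the precursor of the dynorphins, was at 8.94 in mouse 1, 9.38 in mouse 2 and 8.96 in mouse 3 (9.09 ± 0.25), so that mice 1 and 3 were together and mouse 2 was high. Of the way from mouse 1 to mouse 2 in the deposited values, mouse 3 stood at 85.1% for Penk and at 4.39% for Pdyn. It stood between 41.7% and 80.9% for the other 8. These positions depend on the scaling of the arrays. With each array centred on its median, mice 2 and 3 exceeded mouse 1 by 0.48 and 0.55 for Penk. For Pdyn they did so by 0.40 and 0.13. Whether this difference between the opioid genes exceeds the error of 3 arrays was not tested. Crh encodes corticotropin-releasing hormone, the stress peptide that cortical interneurons also make. Its probe set was at 8.83, 9.51 and 9.17 in mice 1, 2 and 3 (9.17 ± 0.34). Mouse 2 was 1.60-fold above mouse 1 and mouse 3 lay midway, at 49.5%.

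**Figure D1:**
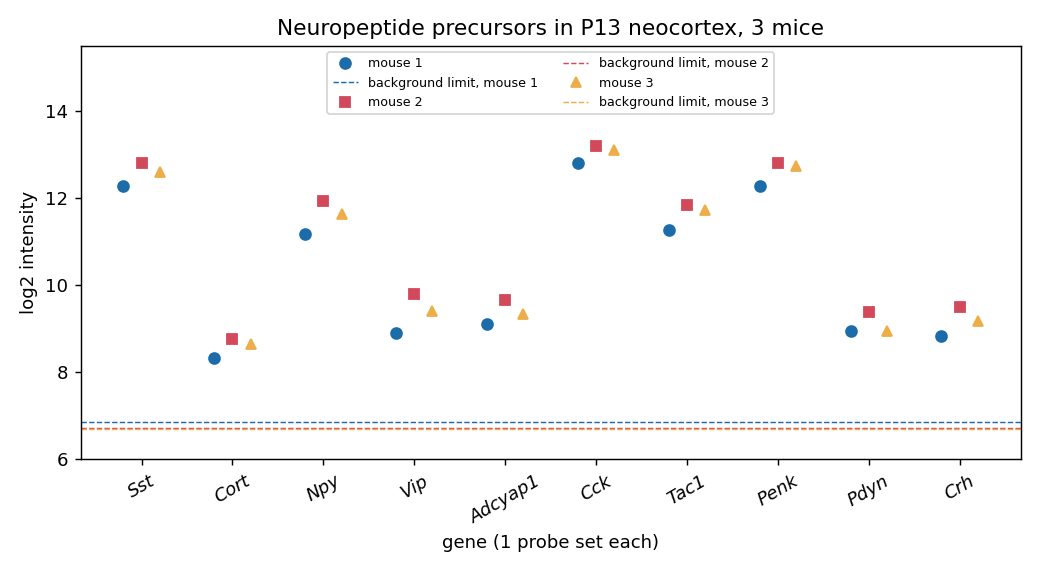
Log2 intensity (vertical axis) of the 10 precursors (horizontal axis) in each of the 3 mice, with the background limit of each array as a dashed line. Every precursor lies above the limits of 6.69 to 6.86, and in every column of these deposited values mouse 1 is the lowest point and mouse 2 the highest, although centring the arrays puts mouse 3 highest for 4 genes.

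The order of the animals was compared with that of all genes, because the arrays themselves differ in brightness. Mouse 1 was the lowest animal for all 10 precursors and for 53.5% of the 11066 genes above the limit. Mouse 2 was the highest for all 10 and for 59.5% of those genes. Both held for 10 of 10 precursors and 42.0% of genes. The median precursor was 0.53 higher in mouse 2 than in mouse 1 on the log2 scale, or 1.44-fold, with a range of 0.41 to 0.91, against a median of 0.17 over genes above the limit. Mouse 3 exceeded mouse 1 by a median of 0.33 in the precursors and of 0.05 in all these genes. The difference between mice 2 and 1 lay above the upper quartile of all genes, 0.36, for each of the 10. These counts are descriptions of 3 arrays: the precursors share each array and are not independent.

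**Figure D2:**
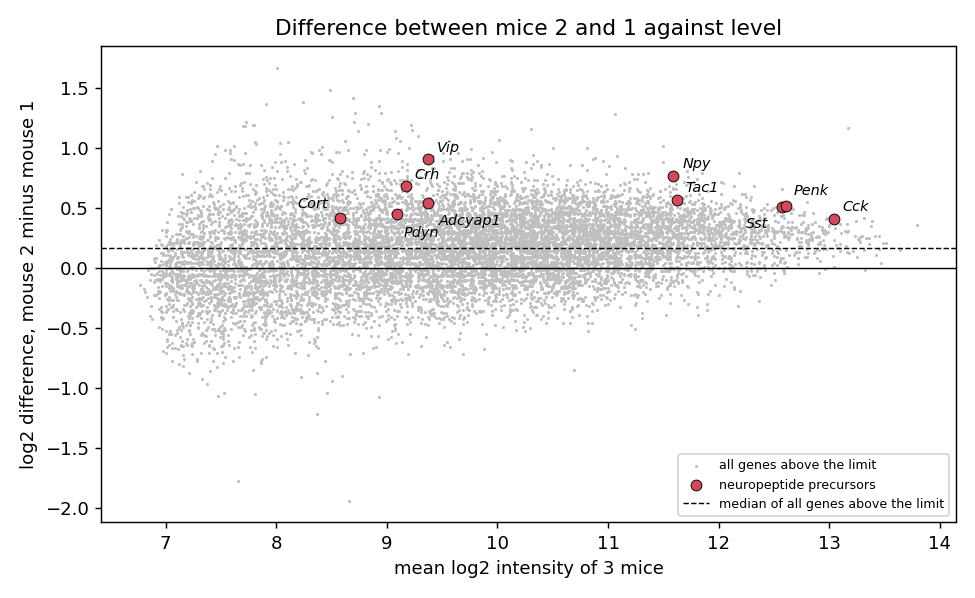
Log2 difference, mouse 2 minus mouse 1 (vertical axis), against mean log2 intensity of the 3 mice (horizontal axis) for genes above the limit (grey) and the 10 precursors (red). The dashed line is the median of all these genes, 0.17, and the precursors lie above it at 0.41 to 0.91, with Vip the highest.

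Part of that difference is shared by genes of like level, and part of the order follows the scaling of the arrays. With probe sets above the limit ranked by level and split into 20 bins of equal number, the median difference between mice 2 and 1 over the genes of a bin ran from 0.13 in that of Cort to 0.28 in that of Npy and Tac1. With the median deviation of like-level probe sets removed, the median precursor was 0.31 higher in mouse 2 than in mouse 1. Mouse 1 was then still the lowest for 10 of 10 precursors, and for 40.8% of genes. Mouse 2 was the highest for 9, Cort being the exception, and for 32.2% of genes. Quantile normalization, which moved the median of all genes from 0.17 to 0.00, gave 10 and 9 in the same way, against 41.2% and 32.1% of genes. With each array centred on its median, mouse 1 was the lowest for 10 and for 59.1% of genes. Mouse 2 was then the highest for 6 and for 31.4% of genes, while Cck, Tac1, Penk and Cort were highest in mouse 3.

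**Figure D3:**
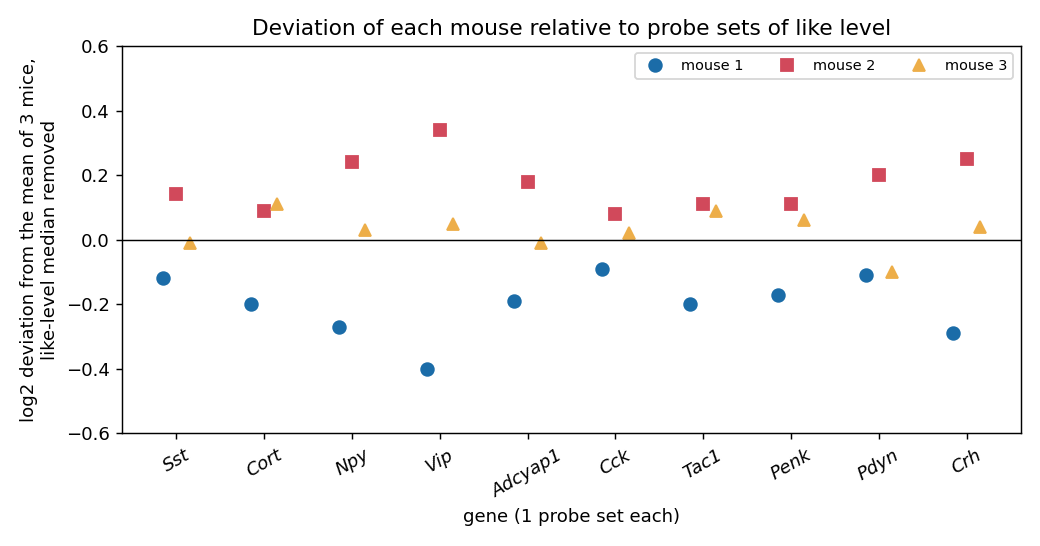
Deviation of each mouse from the mean of the 3 mice in log2 units, after removing the median deviation of probe sets of like level (vertical axis), for the 10 precursors (horizontal axis). Mouse 1 is the lowest point for every gene, from -0.40 for Vip to -0.09 for Cck, and mouse 3 is above mouse 2 for Cort alone.

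All 10 precursors also have short genes, with genomic spans of 1.73 to 13.4 kb in RefSeq. The 4809 genes above the limit with a span under 20 kb had a median difference of 0.23 between mice 2 and 1, against 0.13 for the 6234 longer ones. With a trend on genomic span removed, the median precursor was 0.31 higher in mouse 2 than in mouse 1. Then 9 of 10 were lowest in mouse 1 (Pdyn was lowest in mouse 3), as were 41.5% of genes. Mouse 2 was the highest for 6, and for 30.9% of genes. Mouse 2 exceeded mouse 1 for all 10 under each of these scalings, with the smallest difference 0.16.

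The spread of single precursors was tested against probe sets of like level with limma's robust variance model over 13811 probe sets. No precursor passed at a Benjamini-Hochberg adjusted p under 0.05, where 0.0652% of probe sets did. At an unadjusted p under 0.05 there were 2 of 10, against 5.21% of all probe sets. These were Vip and Npy, with adjusted p-values of 0.756 and 0.866 in limma. All 10 had an SD above the model's value for their level, which was 0.17 to 0.21, Cort narrowly (0.22 against 0.21). The share of all probe sets above that value was not counted, so the 10 cannot be read as excess spread. Of genes above the limit, 1.7% had an SD as large as that of Vip, and 30.6% as large as that of Cck. The median SD of the precursors was 0.28, and that of all genes above the limit 0.16. The precursors' median was 0.17 without mouse 1, with the like-level deviation removed and with the trend on span removed. It was 0.23 without mouse 2, 0.37 without mouse 3, 0.19 after quantile normalization and 0.28 with arrays centred. The 0.16 of all genes belongs to the deposited values of all 3 mice and is no comparator for these settings.

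General genes of the interneurons had a median SD of 0.15 (range 0.04 to 0.28), against 0.28 (range 0.22 to 0.45) for the peptide precursors. Of 17 measured interneuron genes, all above the limit, mouse 1 was the lowest for 8 and mouse 2 the highest for 15. The median difference between mice 2 and 1 was 0.15, with a range of -0.22 to 0.54 that overlapped that of the precursors. Slc32a1, the vesicular GABA transporter, was at 11.49, 11.78 and 11.65 in mice 1, 2 and 3, and Lhx6, a transcription factor of the somatostatin and parvalbumin lineage, at 9.20, 9.35 and 8.98. Gad1, Gad2 and Slc32a1 were 0.15, 0.02 and 0.29 higher in mouse 2 than in mouse 1. The whole list ran from -0.22 for Nos1 to 0.54 for Dlx5, so other genes of it would give another reference. The mean of Gad1, Gad2 and Slc32a1 was 0.16 higher in mouse 2 than in mouse 1, close to the median of 0.17 over all genes above the limit. With that mean subtracted, the differences of the precursors between mice 2 and 1 ran from 0.26 for Cck to 0.75 for Vip. In mouse 3 against mouse 1, on the same footing, 9 of the 10 were higher, by 0.14 to 0.41, and Pdyn was at -0.06. The part of interneuron content in the precursors' differences was not tested. Of 6 excitatory neuron genes, mouse 1 was the lowest for 4 and mouse 2 the highest for 5 (median difference 0.24). Slc17a7 was at 12.90, 12.98 and 12.78, Camk2a at 12.65, 12.93 and 12.86, and Neurod6, a neuronal transcription factor, at 10.24, 11.25 and 10.93. Neurod2, at 9.93, 9.73 and 9.55, had mouse 1 as the highest. None of these genes passed the variance test in limma, and 0 interneuron and 2 excitatory genes had an unadjusted p under 0.05. With like-level deviations removed, the median differences of the interneuron and excitatory lists were 0.01 and 0.00.

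The machinery that makes and stores the peptides was measured by 16 of 19 listed genes, all above the limit. Mouse 1 was the lowest for 13 of these and mouse 2 the highest for 11, and the median difference between mice 2 and 1 was 0.30. Pcsk1, a prohormone convertase, was at 9.95 in mouse 1, 10.24 in mouse 2 and 10.03 in mouse 3. Cpe, the carboxypeptidase that trims the cut peptides, was at 13.21, 13.49 and 13.53. Scg5, a chaperone of the other convertase, and Pcsk1n, an inhibitor of the first, were 1.25-fold and 1.24-fold higher in mouse 2 than in mouse 1. With like-level deviations removed the median difference of the list was 0.06, against 0.31 for the precursors. Of the 16, 0 passed the variance test in limma, and 0 had an unadjusted p under 0.05.

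Most receptors and peptide-degrading enzymes did not have mouse 1 as the lowest animal. Of 18 measured receptors, all above the limit, mouse 1 was the lowest for 3 and mouse 2 the highest for 9, and the median difference between mice 2 and 1 was 0.08. The somatostatin receptor Sstr1 was at 10.32, 10.54 and 10.28 in mice 1, 2 and 3, Sstr3 at 7.51, 7.38 and 7.31, and Sstr4 at 9.86, 9.79 and 9.69. Vipr1, a receptor of vasoactive intestinal peptide and PACAP, was at 7.47, 7.92 and 7.30. The PACAP receptor Adcyap1r1 was at 11.24, 11.12 and 11.14, and the neuropeptide Y receptor Npy1r at 10.13, 10.21 and 10.18. Of the 11 degrading enzymes and binding protein genes 3 were lowest in mouse 1, with a median difference of 0.01. Mme, or neprilysin, was at 8.88, 9.06 and 8.81, and Ece1 at 9.54, 9.60 and 9.58. Crhbp, the binding protein of corticotropin-releasing hormone and named after its values were seen, was at 9.36, 9.84 and 9.81, low in mouse 1 as Crh was. In limma 0 genes of these lists passed the variance test and 0 had an unadjusted p under 0.05. With like-level deviations removed the medians were -0.09 for the receptors and -0.15 for the enzyme list.

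**Figure D4:**
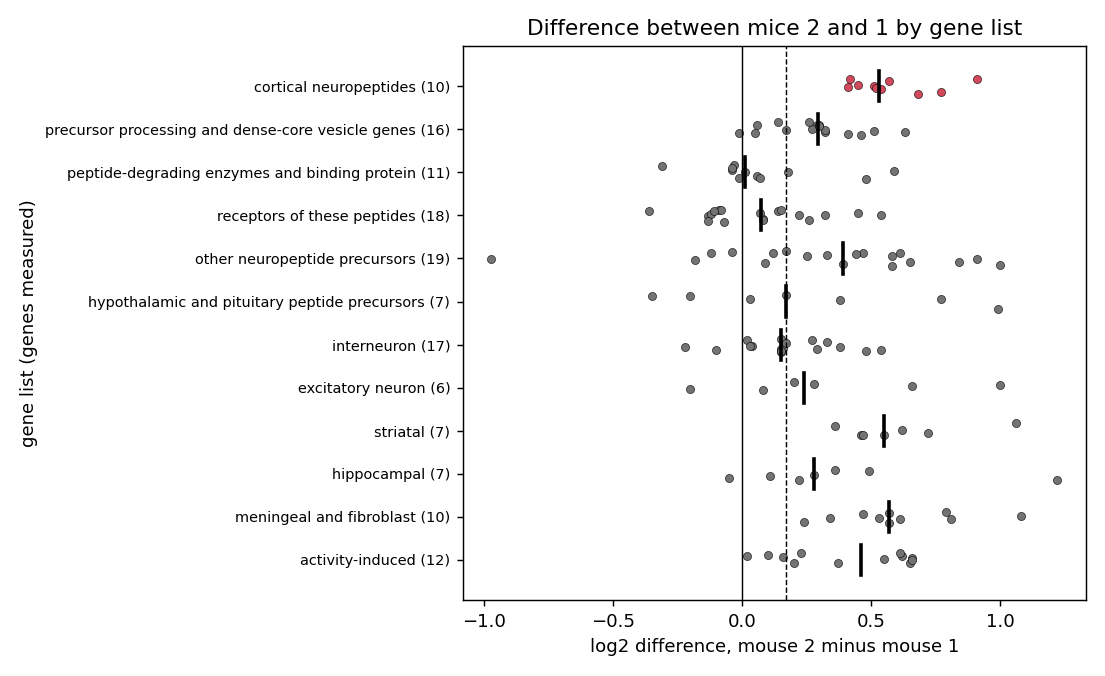
Log2 difference, mouse 2 minus mouse 1 (horizontal axis), of each measured gene in the 10 cortical neuropeptides and in each other gene list (vertical axis), with list medians as black bars and the median of all genes above the limit, 0.17, as a dashed line. The neuropeptides run from 0.41 to 0.91 around a median of 0.53, near the striatal (0.55) and meningeal (0.57) medians and above the receptor (0.08) and interneuron (0.15) medians.

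Markers of tissue next to the cortex were read in the same way. Of 11 striatal genes listed 7 were measured, all above the limit, and mouse 1 was the lowest and mouse 2 the highest for each, with a median difference of 0.55. The mean level of the striatal list was 9.69 in mouse 1, 10.30 in mouse 2 and 9.99 in mouse 3. Ppp1r1b, or DARPP-32, was at 11.81, 12.43 and 12.39, and Rgs9, a regulator of dopamine receptor signalling, at 10.67, 11.22 and 10.99. Of the dopamine receptors, Drd2, which marks the enkephalin neurons of the striatum, differed 1.64-fold between mice 2 and 1, and Drd1, of the dynorphin and substance P neurons, 1.28-fold. Drd1 was at 8.79, 9.15 and 8.82, and Drd2 at 9.77, 10.48 and 10.10. Mouse 3 lay beside mouse 1 for Drd1, beside mouse 2 for Ppp1r1b and between them for Drd2. The meningeal and fibroblast list, 10 genes all above the limit, had mouse 1 lowest for 8 and mouse 2 highest for 10, and its mean was 10.15, 10.76 and 10.32 in mice 1, 2 and 3. Among them Col1a1, at 10.61, 11.08 and 10.16, and Col1a2, at 10.91, 11.25 and 10.57, had mouse 3 as the lowest. Mgp and Ptgds, with mouse 1 lowest, differed 2.11-fold and 1.73-fold between mice 2 and 1, and the collagen genes 1.38-fold and 1.27-fold. With like-level deviations removed the striatal and meningeal medians were both 0.37. The variance test in limma passed 0 genes of either list, and 3 striatal and 4 meningeal genes had an unadjusted p under 0.05. Of 8 hippocampal genes listed 7 were measured and 5 exceeded the limit, and mouse 1 was the lowest for 3 of the 7 and for 1 of those 5 (median difference 0.28 over the 7). The part of neighbouring tissue in the precursors' order was not tested.

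Genes switched on by neuronal activity were measured alongside, since firing raises the transcription of several neuropeptide genes. Of 12 measured of 14 listed, 11 were above the limit. Mouse 1 was the lowest for 10 and mouse 2 the highest for 10, with a median difference of 0.46 between mice 2 and 1. This was 0.31 with like-level deviations removed, as for the precursors, and 0.23 with the trend on span removed, where mouse 1 was the lowest for 7. Fos was at 9.39 in mouse 1, 9.77 in mouse 2 and 9.57 in mouse 3, and Egr1 at 10.88, 11.53 and 11.01. For Junb mouse 3 was the highest (7.98, 8.18 and 8.34). In limma 0 passed the variance test and 1 had an unadjusted p under 0.05. Their part in the precursors' order was not tested.

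Other neuropeptide precursors were measured in the same RNA. Of 19 measured of 22 listed, 11 were above the limit, and for these 11 mouse 1 was the lowest in 6 and mouse 2 the highest in 9. Their median difference between mice 2 and 1 was 0.47, with a range of -0.12 to 1.00. Over all 19, 8 of which were not above the limit on every array, the median was 0.39, and 0.37 with like-level deviations removed. Tac2, the neurokinin B precursor, was at 8.71, 9.71 and 9.17 in mice 1, 2 and 3, a 2.00-fold distance between mice 2 and 1 (adjusted p = 0.650 in limma). Pnoc, the nociceptin precursor, was at 9.14, 9.61 and 9.30. Grp, the gastrin-releasing peptide gene, was at 9.63, 10.23 and 9.62 and placed mouse 3 beside mouse 1, while Nmb, of neuromedin B, was at 7.36, 7.48 and 7.29. Of the 11, 0 passed the variance test in limma and 4 had an unadjusted p under 0.05.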

How the data were processed

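The authors deposited linear intensities, 1 per probe set and array. The submitters' processing notes name mm8 as the genome build and Affymetrix Power Tools as a program. RNA was extracted with Trizol and labelled with biotin for Affymetrix whole-transcript sense targets, per the labels' protocols. The method of background correction, normalization and summary is not given in the sources used here. Upper quartiles of the deposited intensities were 952.5, 1087 and 998.7, so the arrays do not share 1 distribution.

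Log2 was taken with no pseudocount. Names came from GEO's platform annotation (14938 probe sets with 1 gene symbol, 989 with several, 7245 unnamed here), and the Entrez IDs of 14883 of the single-gene probe sets matched RefSeq GRCm38.p6, used for chromosomes, spans and promoters. A gene with several probe sets was represented by the one with the highest mean. The variance test used limma 3.58.1 (fitFDistRobustly with a trend on level, prior 21.2 degrees of freedom) in R 4.3.3 over 13811 probe sets above the limit on all 3 arrays. It was tried on simulated data, with SDs raised by larger factors than those of the precursors over the model's value. Its power at spreads of the precursors' size was not tested. Like-level deviations used 20 bins.

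The precursors and all gene lists were chosen with earlier results of these data known. Of each list the first 4 measured genes were named as a rule, of which some are left out for brevity, and receptors beside their peptide. Correlations across animals were not computed on 3 arrays. The number of arrays limits the precision, and p-values measure the spread between these 3 animals.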

Additional observations from a re-analysis of the deposited data

How the results depend on the processing

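The count of 10 precursors above the limit was the same with the limit at the 99th percentile. Centring, quantile normalization and the pseudocount keep the order of probe sets within an array. The limit is set within that order, so the unchanged count under these settings is no separate check. Leaving out a mouse, a limit at the 90th percentile and asking for 2 arrays could not lower the count. The count of 0 precursors past the variance test was also the same in all 10 alternatives in limma, with 0 to 3 at an unadjusted p under 0.05 and smallest adjusted p-values of 0.756 to 0.994. The order lowest in mouse 1 and highest in mouse 2 held for 10 precursors, for 9 after quantile normalization or removal of like-level deviations, for 6 with arrays centred on their medians, and for 5 with a trend on genomic span removed, an alternative chosen after seeing the data. Leaving out a mouse cannot change the order of the others. The median SD of 0.28 was 0.17 to 0.37 with each mouse left out and 0.19 after quantile normalization. It was 0.17 with like-level deviations removed and 0.17 with the span trend removed. Mouse 2 minus mouse 1 was positive in all 40 values over the 4 alternatives that could turn its sign. Mouse 2 minus mouse 3 turned to -0.06 for Cck, -0.04 for Tac1, -0.08 for Penk and -0.03 for Cort with arrays centred, to -0.03, -0.02, -0.05 and -0.01 in the same order with the span trend removed, and to -0.01 for Cort after quantile normalization and after removal of like-level deviations. Mouse 3 minus mouse 1 turned to -0.06 for Pdyn with the span trend removed. Centring shifts every gene of an array by 1 amount, and the causes of the other changes were not tested. No paired analysis was possible because there is 1 group. The annotation gave each precursor 1 probe set, so averaging probe sets changed nothing.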

Other observations

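Peptide precursors of the hypothalamus and pituitary were also measured in this neocortical RNA. Of 7 measured of 8 listed, 6 exceeded the limit in each mouse, as did 74.6% of single-gene probe sets. Pmch, the precursor of melanin-concentrating hormone, was at 9.26 in mouse 1, 10.25 in mouse 2 and 9.76 in mouse 3, a 1.98-fold distance between mice 2 and 1 (adjusted p = 0.586 in limma's variance model). Avp, the vasopressin precursor, was at 8.79, 9.56 and 9.21, and Hcrt, the orexin precursor, at 7.70, 8.08 and 7.89. Mouse 1 was the lowest and mouse 2 the highest for these 3 of the 7 genes, an order that 42.0% of all genes above the limit had. The median difference of the list between mice 2 and 1 was 0.17, and 0.05 with like-level deviations removed. Oxt, of oxytocin, was at 8.88, 9.05 and 8.84, so that mice 1 and 3 were together. Pomc, at 7.55, 7.35 and 7.29, and Gnrh1, at 7.15, 6.80 and 6.58, had mouse 1 as the highest and were named after their values were seen. Gnrh1 was above the limit on 2 arrays. Lying above the limit does not by itself show expression, since 31 of the 951 receptor probe sets that set the limit were above it on all 3 arrays.

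Nts, the neurotensin precursor, and Trh, that of thyrotropin-releasing hormone, were chosen after their values were seen. Nts was at 9.25, 10.16 and 9.74 in mice 1, 2 and 3, and Trh at 8.65, 9.49 and 9.29. Mouse 2 was 1.88-fold above mouse 1 for Nts and 1.78-fold for Trh, with adjusted p-values of 0.710 and 0.836 in limma's variance model.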
